A study of Drosophila melanogaster with 4 samples.

Results

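Broad domains of RNA polymerase II (Pol II) were examined in whole embryos of *Drosophila melanogaster*. A broad domain was an enriched region of 5 kb or more on one of the 5 major chromosome arms (2L, 2R, 3L, 3R and X). Domains were chosen by their width in the region list that the authors deposited for the replicate set as a whole. This rule took 554 of the 9714 regions on those arms. The full list held 9885 regions, and the other 9160 regions of the major arms are called narrower regions here. The lists came from chromatin immunoprecipitation and sequencing (ChIP-seq) of wild-type Oregon-R embryos aged 14 to 16 h, precipitated with a Pol II antibody from abcam. The series had 4 samples. The 2 Pol II ChIP samples each had 1 of the 2 input samples, which were chromatin DNA without precipitation. All 4 samples shared strain, genotype and age, and no mutant or treated group was part of the design. The embryos were pooled from population cages and all their tissues were mixed, so a domain can stem from few cells with much Pol II or from many cells with little. These cannot be told apart.

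Pol II is the enzyme that transcribes protein-coding genes. At many genes of flies it gathers just downstream of the start site and pauses there before it moves on, and this gives a narrow peak in a ChIP-seq profile. At genes that are transcribed heavily it is found over the whole body of the gene as well, and the enriched stretch widens. Neighbouring active genes can also run together into a single stretch. Which genes lie under the domains was not analysed here, since the regions lie on release 5 of the genome and the available gene annotation is for release 6. No sequences are shown for the same reason.

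Width in the replicate-set list chose the members, and that list stands for the same 2 ChIP libraries as the replicate lists. Widths, scores and replicate cover of the domains are therefore descriptions, and no test was made on them. Intervals on shares are Wilson 95% intervals. They cover counting error only, and neighbouring regions are not independent. The number of reads behind a region is unknown. Whether the 2 ChIP samples came from separate embryo collections is not in the labels, so the spread between them may be technical.

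Broad domains were few, and since width chose them, their share of the enriched bases exceeds their share of regions by construction. They made up 5.70% of the regions on the major arms (interval 5.26 to 6.18) and 19.3% of the bases in them, which was 4.42 of 22.9 Mb. They covered 3.71% of the arms. The median domain was 6536.5 bp wide, against 1889 bp for narrower regions, and the quartiles of the domains were 5617.75 and 8488.75 bp. Most domains lay close to the threshold. There were 199 from 5 to 6 kb, 188 from 6 to 8 kb, 76 from 8 to 10 kb, 78 from 10 to 20 kb and 13 of 20 kb or more. The 91 domains of 10 kb or more made up 16.4% of the domains and 31.5% of their bases. The 3 members just inside the threshold were 5000, 5001 and 5003 bp wide, with scores of 0.82, 0.69 and 1.16. The 3 regions just outside it were 4995, 4992 and 4979 bp wide, with scores of 0.95, 0.45 and 1.69.

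Each replicate list alone held fewer wide regions. Regions of 5 kb or more numbered 206 of 5128 in replicate 1 and 193 of 5131 in replicate 2, and they held 12.8% and 12.3% of the enriched bases. The widest was 27267 bp in replicate 1 and 30660 bp in replicate 2, against 73089 bp in the replicate-set list. Of these wide replicate regions, 203 of 206 in replicate 1 and 190 of 193 in replicate 2 lay on a broad domain. The other 3 of each replicate lay where the replicate-set list had narrower regions, 2 of them side by side in 5 of the 6 places. In the sixth, 2L from 5762073 to 5767102 in replicate 2, it had 1 region of 4959 bp. The lists share libraries and the rule took wide regions, so nothing is read from these counts.

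The 10 widest domains ranged from 21.5 to 73.1 kb, and the replicates split most of them. The widest, on 3R from 5721135 to 5794223, consisted of 9 replicate 1 regions and 8 replicate 2 regions. They covered 78.3% of the domain in replicate 1 and 94.5% in replicate 2. Their scores ran from 0.58 to 0.89 in replicate 1 and from 0.58 to 0.82 in replicate 2. The last replicate 2 region was 27410 bp wide, and replicate 1 had 4 regions over that stretch. The second widest, on 3R from 5242639 to 5280169, had 1 long region in each replicate, 27267 bp in replicate 1 and 30660 bp in replicate 2, with shorter ones beside it. On 2L from 16765264 to 16792663, the domain was 1 region in each replicate, which covered 99.2% of it in replicate 1 and 99.7% in replicate 2. Its score of 1.48 was the highest of these 10. The X domain from 12552379 to 12574378 was 2 regions in replicate 1, parted by a gap of 2 bp, and 5 regions in replicate 2. The 3R domain from 12064699 to 12086406 was 1 region of 20345 bp in replicate 1 and 3 regions in replicate 2. On 2R from 18782230 to 18806335 the replicates had 3 regions each, but the longest replicate 1 region of 10112 bp spanned a break of replicate 2. On 3R from 11111173 to 11134378 both began with a long region, of 13459 bp in replicate 1 and 13631 bp in replicate 2, and then had 2 and 3 shorter ones. The tenth widest, on 3R from 5163978 to 5185431, had 4 and 5 regions, and the first of them scored highest in each replicate, at 1.11 and 1.15.

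**Figure D1:**
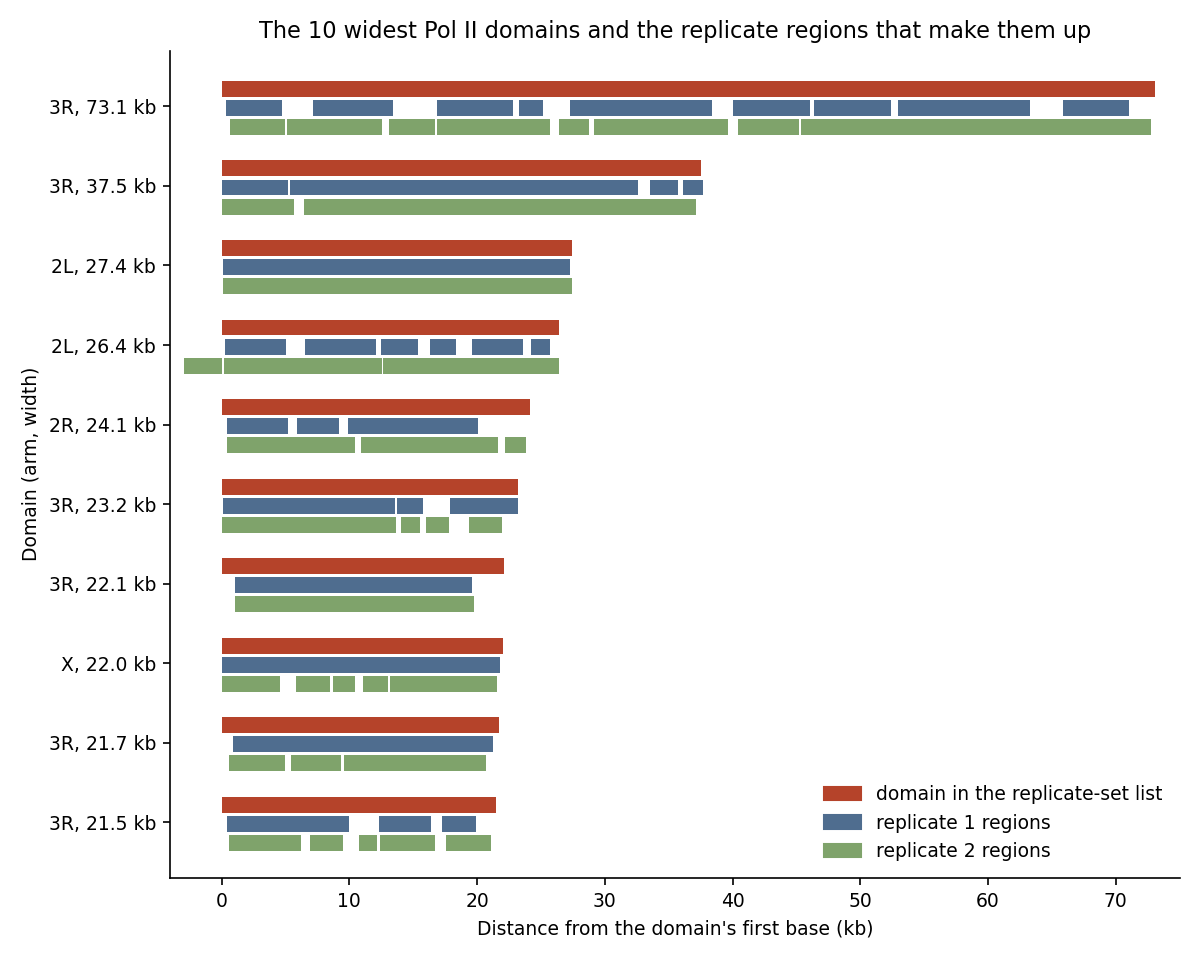
The 10 widest domains, drawn from the domain's first base (horizontal axis, kb), each with the domain of the replicate-set list on top, the replicate 1 regions under it and the replicate 2 regions at the bottom. The 73.1 kb domain consists of 9 replicate 1 and 8 replicate 2 regions, while the 27.4 kb domain on 2L is 1 region in each (gaps of a few bp are too small to see).

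The widest domain did not stand alone. A domain of 22069 bp ended 798 bp before it, and one of 20411 bp began 35 bp after it. Together the 3 domains spanned 116 kb of 3R, from 5698268 to 5814669, and domains covered 99.3% of that span. The first of them was 1 region in each replicate, 18526 bp in replicate 1 and 18658 bp in replicate 2. The last consisted of 3 replicate 1 regions and 4 replicate 2 regions, the fourth of which reached beyond its end. Scores in the replicate-set list were 0.91, 0.71 and 0.77 in order along the arm. The edges that part these domains thus rest on gaps of under 1 kb, and merging regions within 500 bp would join the last pair.

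Domains were unevenly spread over the arms. There were 6.29 domains per Mb on 2R, 5.09 on 3R, 4.36 on 3L, 4.10 on the X and 3.48 on 2L. Narrower regions varied less, with 88.8 per Mb on 2R, 76.3 on 3R, 73.7 on 3L, 76.6 on the X and 70.7 on 2L. The share of regions that were broad was 6.61% on 2R (interval 5.61 to 7.78), 6.26% on 3R (5.33 to 7.33), 5.59% on 3L (4.64 to 6.71), 5.08% on the X (4.16 to 6.19) and 4.68% on 2L (3.78 to 5.79). The intervals of 2R and 2L overlap by a narrow margin, and those of the other arms overlap more. The order of the densities recurred in the replicate lists. Regions of 5 kb or more came to 2.32 per Mb ± 0.00 on 2R, 2.06 ± 0.23 on 3R, 1.55 ± 0.00 on 3L, 1.34 ± 0.06 on the X and 1.09 ± 0.06 on 2L (SD, n = 2). Each replicate had 49 of them on 2R, while 3R had 62 in replicate 1 and 53 in replicate 2. The step between 2R and 3R was therefore close to the spread between replicates, and the distance of both from 2L was larger than it. Domains of 10 kb or more numbered 24 on 3R, 22 on 2R, 21 on 3L, 13 on 2L and 11 on the X. Median domain width varied little, from 6421 bp on 2R to 6853 bp on 3L.

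**Figure D2:**
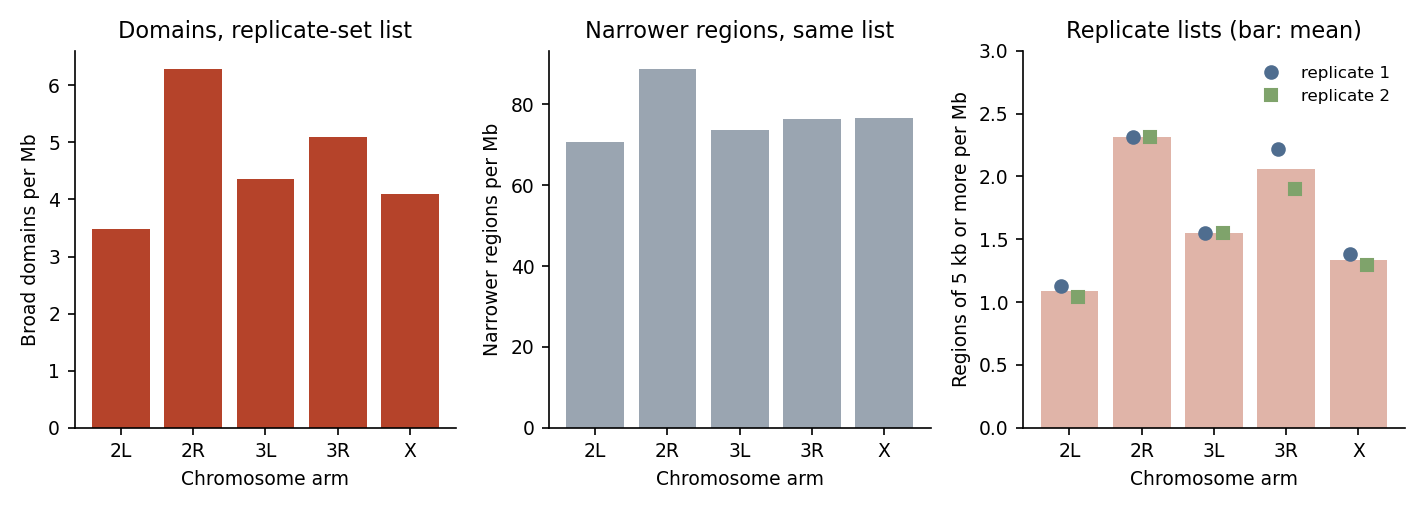
Density by chromosome arm of broad domains (left, per Mb), of narrower regions of the same list (middle, per Mb) and of regions of 5 kb or more in the replicate lists (right, per Mb, with 1 point per replicate and the bar at their mean). Arm 2R has the tallest bar in each panel, with 6.29 domains and 88.8 narrower regions per Mb, and 2L the lowest, with 3.48 and 70.7.

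Near the centromere, most of the domains lay on 3R. The 2 Mb at the centromere end of the arm sequences held 25 of the 554 domains (4.51%, interval 3.08 to 6.58) and 453 of the 9160 narrower regions (4.95%, interval 4.52 to 5.41). Of the 25 domains, 19 lay on 3R, where this end held 13.4% of the domains of the arm and 7.99% of its narrower regions. Without 3R the shares were 1.46% of domains (6 of 412, interval 0.669 to 3.14) and 4.02% of narrower regions (283 of 7032, interval 3.59 to 4.51). Over all 5 arms the intervals overlapped, and leaving out 3R removes the arm with most of these domains. Nothing is therefore read from the shares without it. On 2R, 0 of 133 domains lay at this end, against 83 of 1878 narrower regions (4.42%). The Wilson intervals of these shares did not overlap on 2R, at 0 to 2.81 for domains and 3.58 to 5.45 for narrower regions, and they overlapped on each of the other arms. On the X the counts were 0 of 92 domains (interval 0 to 4.01) and 71 of 1718 narrower regions (4.13%). On 2L this end held 2 of 80 domains (2.5%, interval 0.688 to 8.66) and 5.77% of the narrower regions. On 3L it held 4 of 107 domains (3.74%, interval 1.46 to 9.22) and 1.94% of the narrower regions.

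Some stretches held many domains. In bins of 1 Mb the median was 4 domains, and 8 of 122 bins had 10 or more. The fullest bin was the first 1 Mb of 3L, with 15 domains beside 86 narrower regions, and replicates 1 and 2 had 8 and 6 wide regions there. Next came 3R from 5000001 to 6000000, with 13 domains that covered 231 kb, and there the replicates had 17 and 13 wide regions. Both bins of 2R between 18000001 and 20000000 had 12. A bin on 3R, from 21000001 to 22000000, had no domain beside 76 narrower regions. Over the 117 full bins, the numbers of domains and of narrower regions gave a Spearman rho of 0.50, with r = 0.49 by Pearson. The numbers of wide regions in the 2 replicate lists gave a rho of 0.67 and an r of 0.82. Both correlations are across bins, which share libraries and are no replicates.

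Broad domains had close neighbours more often than narrower regions did. Another region lay within 1 kb of 293 of the 554 domains (52.9%, interval 48.7 to 57.0), against 3653 of the 9160 narrower regions (39.9%, interval 38.9 to 40.9). Over all 9714 regions the share was 40.6%. The median distance to the nearest region was 881 bp for domains and 1513 bp for narrower regions. It was 1762 bp for the 3165 narrower regions found in both replicates. A region stood within 100 bp of 11.0% of the domains and of 6.70% of the narrower regions. The share within 1 kb was higher for domains on each arm, from 60.2% against 43.7% on 2R to 43.5% against 39.5% on the X. On 3L and the X, however, the intervals of the 2 shares overlapped. In the replicate lists, 30.1% of the wide regions of replicate 1 and 36.8% of those of replicate 2 had a region within 1 kb, against 19.6% and 19.9% of narrower ones. A count over a wider space showed no such gap, since the median number of other regions within 20 kb of either edge was 5 for domains and 5 for narrower regions.

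**Figure D3:**
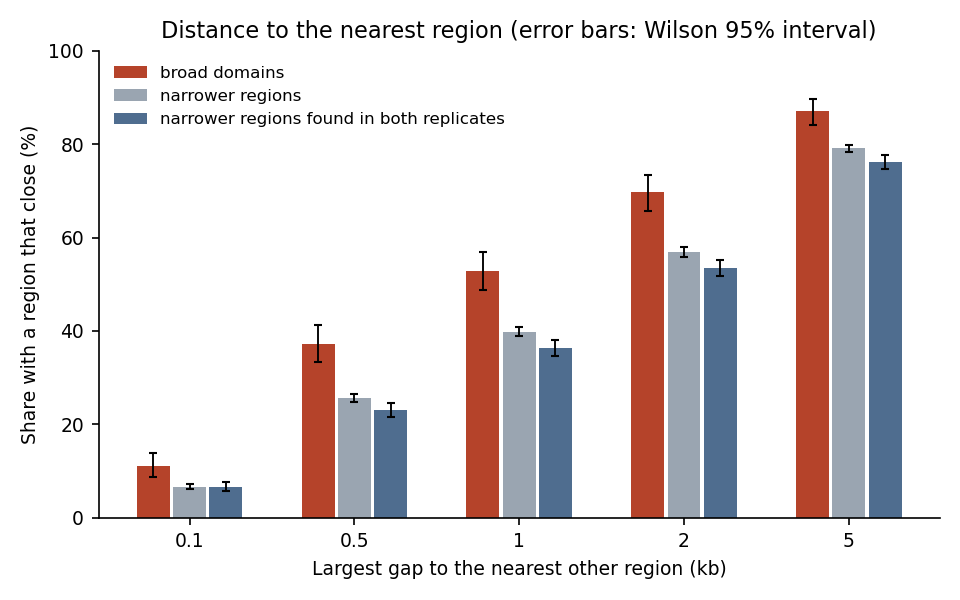
Share of regions (vertical axis, %) whose nearest other region lies within the distance on the horizontal axis (kb), for broad domains, all narrower regions and the narrower regions found in both replicates, with Wilson 95% intervals as error bars. Domains have the highest bar at each distance, 52.9% against 39.9% at 1 kb.

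With neighbours that were themselves broad left out, the close neighbours of domains resembled those of narrower regions. The 303 narrower regions within 1 kb of a domain, counted once for each domain they adjoin, had medians of 2033 bp in width and 0.47 in score. Those beside a narrower region had medians of 1882 bp and 0.46. Of the neighbours of domains, 34.3% overlapped a region of both replicates and 42.9% overlapped none, against 30.5% and 45.2% beside narrower regions. The next region along the arm was itself broad in 9.75% of the neighbours of domains (interval 8.14 to 11.6) and in 5.46% of those of narrower regions (interval 5.14 to 5.80).

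Domains had another domain nearby more often than narrower regions had one. A further domain lay within 20 kb of 207 of them (37.4%, interval 33.4 to 41.5), against 2308 of the 9160 narrower regions (25.2%, interval 24.3 to 26.1). Within 1 kb the shares were 7.76% of domains and 3.28% of narrower regions. The median distance to the nearest domain was 34.4 kb for domains and 62.8 kb for narrower regions, and the longest between domains was 830 kb. Domains joined by distances of up to 20 kb formed 61 pairs, 19 groups of 3 and 7 groups of 4, and the other 347 stood alone. The groups of 4 with the most bases were on 3R from 27003600 to 27080051, on 3L from 5742682 to 5806537, and on the X from 9860272 to 9938911. They spanned 76.5, 63.9 and 78.6 kb, of which domains covered 64.9%, 64.5% and 51.9%. Scores within these groups ranged from 0.57 to 1.18 on 3R, from 0.62 to 1.14 on 3L, and from 0.60 to 0.76 on the X.

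The authors gave each region a score, a positive number whose formula the sources used here do not give. Domains had a median score of 0.73, with quartiles of 0.60 and 1.01, against 0.47 for narrower regions, with quartiles of 0.41 and 0.57. Of the domains, 94.0% scored at or above the median of all regions. The lowest domain score was 0.40, while narrower regions went down to 0.05. In the replicate lists the median of wide regions was 1.06 in replicate 1 and 1.08 in replicate 2, against 0.69 and 0.68 for narrower regions. Against the narrower regions found in both replicates, whose median was 0.65, the difference in the replicate-set list was 0.082. All domains were kept in that comparison, and the 530 found in both replicates had a median of 0.76. On the X both medians were higher than on the other arms, 0.83 for domains and 0.52 for narrower regions. The difference between them was 0.31 there and 0.25 to 0.28 on the autosome arms.

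No step in score was seen at 5 kb. The median was 0.66 for domains of 5 to 6 kb and 0.67 for regions of 4 to 5 kb. Among domains it was 0.78 from 6 to 8 kb, 0.79 from 8 to 10 kb, 0.83 from 10 to 20 kb and 0.89 for the 13 domains of 20 kb or more. Below 5 kb the median did not rise evenly with width. It was 0.44 from 1 to 1.5 kb, 0.40 from 1.5 to 2 kb, 0.59 from 2 to 2.5 kb, 0.53 from 2.5 to 3 kb and 0.60 from 3 to 4 kb. Within the domains, width and score correlated weakly (Spearman rho 0.23, Pearson r 0.11, across 554 domains of the same libraries). Domains were 19 of the 100 highest-scoring regions on the major arms (19.0%, interval 12.5 to 27.8) and 189 of the top 1000 (18.9%, interval 16.6 to 21.4), against 5.70% of all regions there. None of the top 10 was a domain. The 5.70% counts all regions, most of which were narrower ones not found in both replicates. Of the 3695 regions found in both, 530 were domains. The top ranks were not counted within that set.

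**Figure D4:**
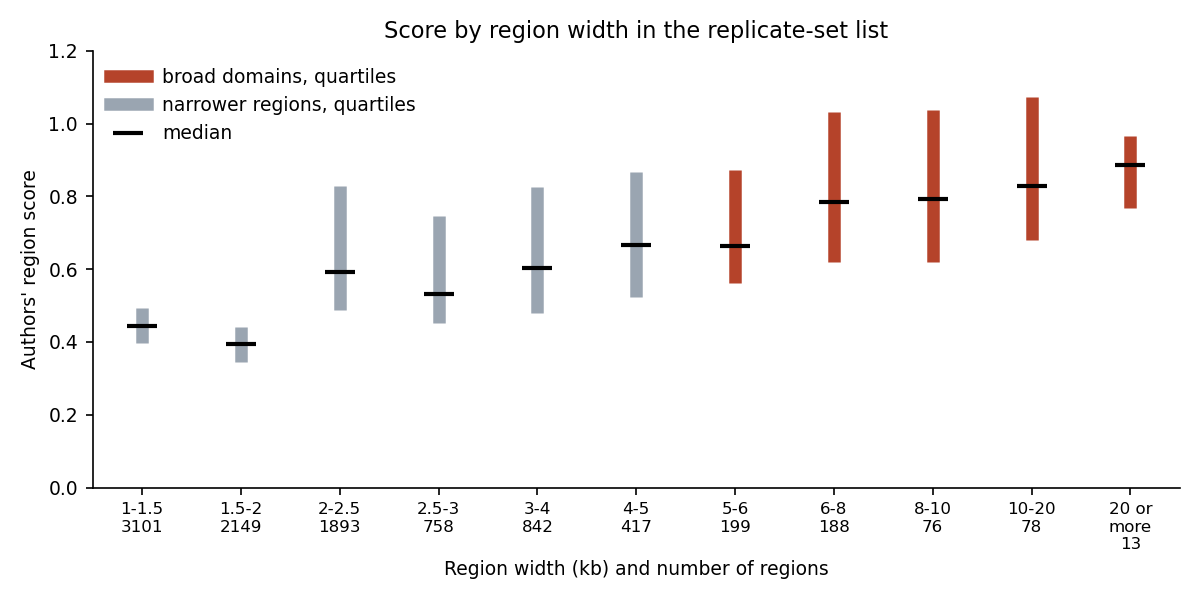
The authors' score (vertical axis) by width class in the replicate-set list (horizontal axis, kb, with the number of regions), with the median as a line and the quartiles as a bar. The median is 0.66 for domains of 5 to 6 kb, close to the 0.67 of regions of 4 to 5 kb, and 0.89 at 20 kb or more.

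The 5 highest-scoring domains had scores of 2.33, 2.32, 2.05, 1.89 and 1.89. The first, on 2R from 5436280 to 5446542, was 2 regions in replicate 1 with a highest score of 2.51 and 1 region in replicate 2 with 2.64. The second, on 2R from 16829790 to 16835304, was 1 region in each replicate, with 2.30 and 2.46. The others were on 3L, from 222076 to 232394, from 627164 to 645248 and from 11244315 to 11250382. The domain from 627164 to 645248 was both wide, at 18085 bp, and unbroken, and its regions scored 1.91 in replicate 1 and 1.92 in replicate 2. Replicates covered 96.1% of it in common. At the other end, the 5 lowest scores were 0.40 to 0.41, and 4 of these domains lay on 3R and 1 on 2L. No base of these 5 domains was covered by both replicates. On 3R from 11839690 to 11846179, for example, replicate 1 covered 67.6% and replicate 2 covered 21.7%, in separate parts of the domain.

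Both replicates found nearly every domain. A region of each replicate overlapped 530 of the 554 domains by 1 bp or more (95.7%, interval 93.6 to 97.1). Over all 9714 regions the share was 38.0%. A wide region takes in more of the arm, and the rule used the same libraries, so nothing is read from this difference. All 91 domains of 10 kb or more were found in both. Of the 24 that were not, 11 were found in replicate 1 alone, 12 in replicate 2 alone and 1 in neither. These 24 had a median score of 0.46 and were at most 8836 bp wide. The 1 domain without a replicate region lay on the X from 3744991 to 3751372 and scored 0.46.

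Most domains consisted of several regions in at least one replicate. A single region in each replicate made up 208 domains (37.5%, interval 33.6 to 41.7), and over all 9714 regions this share was 33.3%. Most narrower regions were not found in both replicates, and this lowers the share over all regions. Among regions found in both, 208 of 530 domains were single in both (39.2%, interval 35.2 to 43.5), against 3023 of 3165 narrower regions (95.5%, interval 94.7 to 96.2). A wide region has room for more replicate regions, and width chose the members, so nothing is read from this difference. Another 96 domains were single in replicate 1 and split in replicate 2, 94 were split in replicate 1 and single in replicate 2, and 132 were split in both (23.8%, interval 20.5 to 27.5). Splitting was more frequent in wider domains, and the same limit holds there. The share that was single in both was 54.8% from 5 to 6 kb (interval 47.8 to 61.5), 36.7% from 6 to 8 kb (30.1 to 43.8), 18.4% from 8 to 10 kb (11.3 to 28.6) and 17.9% from 10 to 20 kb (11.0 to 27.9). Of the 13 domains of 20 kb or more, 2 were single in both and 10 were split in both. Domains that were single in both scored higher than those split in both, with medians of 0.88 and 0.71, although they were narrower, with median widths of 5920.5 and 8651.5 bp.

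Few domains had a wide region in both replicates. A replicate region of 5 kb or more lay on 122 domains in both replicates (22.0%, interval 18.8 to 25.7), on 66 in replicate 1 alone and on 58 in replicate 2 alone. The other 308 domains (55.6%, interval 51.4 to 59.7) had none in either. Their median width was 6039.5 bp and their median score 0.64, against 9220.5 bp and 1.07 for the 122. Among the 208 domains that were single in both, the replicate region was narrower than the domain at the median, 4672.5 bp in replicate 1 and 4530 bp in replicate 2. The domain reached beyond it by a median of 299 bp at the start and 281 bp at the end in replicate 1, and by 347 and 373 bp in replicate 2. Domains were chosen by width in the replicate-set list alone, so nothing is read from the smaller widths in the replicates.

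Each replicate covered about the same part of the domains. Replicate 1 regions covered 72.4% of the domain bases and replicate 2 regions 73.2%, a mean of 72.8% ± 0.6 (SD, n = 2). Both covered 59.7% and at least one covered 85.8%, which left 14.2% in the replicate-set list alone. For narrower regions found in both replicates the same values were 73.7%, 89.5% and 10.5%. Of the domain bases covered in replicate 1, 82.5% were covered in replicate 2, and of those in replicate 2, 81.6% were covered in replicate 1. Most of the bases a replicate missed lay at the edges of domains. Bases outside the outermost region of a domain made up 19.4% of domain bases in each replicate, and gaps between regions 6.50% in replicate 1 and 5.82% in replicate 2. Domains with no region in a replicate, 13 in replicate 1 and 12 in replicate 2, made up another 1.76% and 1.62%. Single domains differed far more than these sums. The covered shares of the 554 domains gave a Spearman rho of 0.44 between replicates, with r = 0.42 by Pearson, and 41 domains differed by more than 50 percentage points. Replicate 1 covered more of 268 domains and replicate 2 more of 285.

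**Figure D5:**
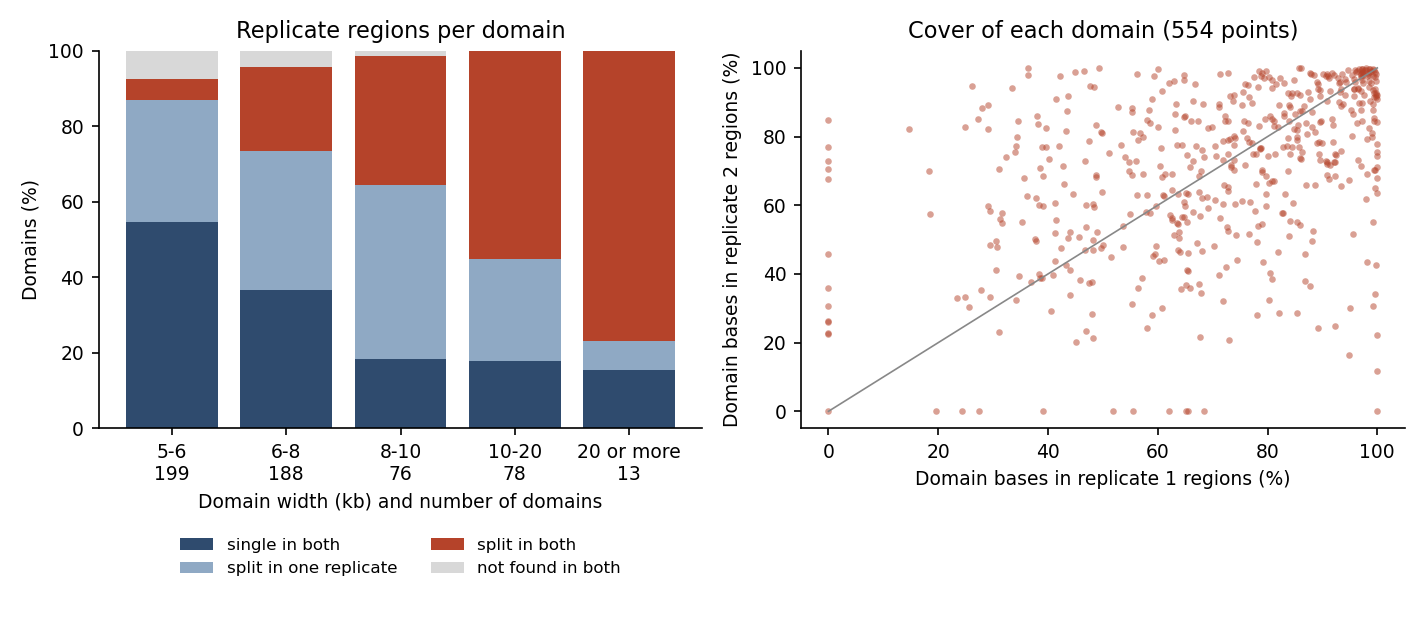
Left, share of domains (%) in each width class (kb, with the number of domains) that were a single region in both replicates, split in one, split in both, or not found in both, and right, share of bases (%) of each of the 554 domains covered by replicate 1 regions (horizontal) and replicate 2 regions (vertical). Domains single in both make up 54.8% at 5 to 6 kb and 17.9% at 10 to 20 kb, and the points scatter widely about the line of equal cover.

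The 5 domains that differed most between replicates show the range. The domain on 2R from 20206561 to 20211731 was covered in full by replicate 1 and not at all by replicate 2. The domain on 2L from 18521134 to 18532766, 11633 bp wide, was 100% covered in replicate 1 and 11.8% in replicate 2, and the replicate regions scored 0.93 and 0.53. On 3R from 4805594 to 4811755 it was replicate 2 that covered more, with 84.9% in 3 regions, and replicate 1 had none. On 3L from 4288847 to 4308714 the shares were 94.9% and 16.3%, and on the X from 14365583 to 14375066 they were 100.0% and 22.3%. The last of these was also remote, with the nearest regions 118 kb before it and 25.1 kb after it.

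The places at which the replicates broke a domain coincided in part. Domains held 308 gaps between replicate 1 regions and 312 between replicate 2 regions, 2 of the replicate 2 ones without a base between. The median gap was 627 bp in replicate 1 and 551 bp in replicate 2, and 66.9% and 70.5% of gaps were at most 1 kb. Regions of replicate 2 covered 143 of the 308 replicate 1 gaps in full (46.4%) and 116 in part (37.7%), and left 49 wholly uncovered (15.9%). Regions of replicate 1 covered 135 of the 310 replicate 2 gaps of 1 bp or more in full (43.5%) and 104 in part (33.5%), and left 71 wholly uncovered (22.9%). The wholly uncovered gaps are not all shared breaks. Some lay in domains where the other replicate had no region. Counted in bases between the outer regions of a domain, the gaps came to 287 kb in replicate 1 and 257 kb in replicate 2. They had 64.9 kb in common, 22.6% of the replicate 1 gaps and 25.2% of the replicate 2 gaps.

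In 112 of the 132 domains split in both replicates (84.8%), the highest-scoring region of replicate 1 overlapped that of replicate 2 by 1 bp or more. Wide regions in a domain of few regions meet this rule easily, and nothing is read from the share. The regions of a split domain differed in score by a median of 0.25 in replicate 1 and 0.26 in replicate 2, from the highest to the lowest. The widest region was also the highest-scoring in 176 of 230 split domains of replicate 1 (76.5%) and in 175 of 232 of replicate 2 (75.4%). Only 54 and 58 of these split domains held 3 or more regions. With so few regions the 2 coincide easily, and nothing is read from these shares either. The median region of a split domain was 2256.5 bp wide in replicate 1 and 2361.5 bp in replicate 2. The most divided domains after the widest one were the X from 2420271 to 2440512, with 5 regions in each replicate, and the 2L domain from 1653127 to 1679513, with 6 and 3. Replicates 1 and 2 covered 61.4% and 69.0% of the X domain but had 39.9% of its bases in common. The 2L domain counts a replicate 2 region that reaches into it by 10 bp.

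Scores in the replicate-set list ran below those of the replicate lists, in domains and in narrower regions. Among the 530 domains found in both replicates, 526 scored below the mean of the highest replicate 1 and replicate 2 regions. So did 2951 of the 3165 narrower regions found in both (93.2%). The median of the replicate-set score minus that mean was -0.15 for domains and -0.060 for narrower regions. It was -0.12 for domains single in both, against -0.057 for narrower regions single in both. For domains split in both it was -0.23, where the highest of several regions is set against 1 region. Against the mean score of all replicate regions in the domain, it was -0.075 for the split ones. Between replicates, the highest scores of the 530 domains gave a Spearman rho of 0.82, with r = 0.85 by Pearson, and a median absolute difference of 0.12. These correlations are across domains of the same libraries.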

How the data were processed

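The submitters' processing notes name Bowtie 0.12.7 as the aligner, and regions are on FlyBase release 5, per the file headers. The embryos had been crosslinked with 1.8% formaldehyde, per the labels' protocols. The authors deposited 3 lists of enriched regions, 1 for each ChIP sample and 1 for the replicate set. The caller, its threshold and the way replicates were joined were not given in the sources used here. Starts and ends are the authors' deposited positions, counted from 1, and the score of each region is also a value the authors deposited. Scores were used only to rank and describe regions within a list, apart from the comparisons of domains across lists that are named as such. Input samples were not analysed here on their own.

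A replicate region belonged to a domain if they shared 1 bp or more. Gaps are the bases between regions. Distance to the centromere was counted from the end of the arm sequence by region midpoint, and bins were filled by midpoint. The interval code was tested on simulated lists with known answers. The work ran on pandas 2.3.3 and numpy 2.4.6 under Python 3.11.15, with intervals from scipy 1.17.1 and figures from matplotlib 3.10.9. The members, the measures and the rule for named domains were chosen with earlier results of these data known. The rule named the 10 widest domains, the 5 with the highest and the 5 with the lowest score, the 5 most split, the 5 least covered, the 5 that differed most between replicates, the 5 widest that were single in both, the 3 largest groups, and the 3 regions on each side of the threshold. Other regions were named after their values were seen. Alternatives were other widths, merging regions up to 500 bp apart, and only regions of median score or more in each list. Others were a stricter overlap, other distances, a narrower comparison set, the mean, and each replicate left out.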

Additional observations from a re-analysis of the deposited data

How the results depend on the processing

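Of 71 values recomputed, 12 kept within the replicate spread, the interval or 1.5 times the count, and 59 moved. Only the score difference between domains and narrower regions could change sign, and it did so in no setting. The number of domains was 971, 355 and 91 at 4, 6 and 10 kb and 890 after merging within 500 bp. The share of enriched bases was 27.4%, 14.6% and 6.08% at these widths, 32.2% after merging and 29.4% when only regions of median score or more were kept. For the shares that use replicate regions, the median-score setting also cut each replicate list at its own median. This left fewer replicate regions to overlap or cover a domain, so its values do not show that higher-scoring domains were found less often. Domains found in both replicates made up 91.3%, 97.5% and 100.0% at 4, 6 and 10 kb, 92.8% after merging and 78.1% at or above the median score. Those single in both made up 47.8%, 27.9%, 17.6%, 31.6% and 53.4% in the same order. Bases covered by both came to 57.4%, 62.6%, 69.3%, 48.9% and 48.5%. A stricter overlap, with 50% or more of the replicate region in the domain, changed none of these 3 shares. A neighbour within 1 kb was found for 26.2% after merging, against 19.4% of narrower regions, and for 28.4% at or above the median score, against 20.0%. Within 2 kb the share was 69.7%. Another domain within 20 kb was found for 51.4%, 27.3% and 15.4% at 4, 6 and 10 kb and 48.4% after merging, and 27.6% and 58.5% had one within 10 and 50 kb. The score difference was 0.24, 0.33 and 0.36 at 4, 6 and 10 kb, 0.19 at or above the median score, 0.082 against narrower regions found in both replicates and 0.29 between means. The ratio of the densest to the sparsest arm was 1.81 as reported, 2.12 at 10 kb, where the X was sparsest, and 1.62 after merging. Arm 2R was densest in each of these settings.

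Leaving out each replicate gave 193 to 206 domains with 12.3% to 12.8% of the enriched bases, from the other replicate's list. Neighbours within 1 kb were then found for 30.1% to 36.8%, domains within 20 kb for 23.3% to 25.2%, a score difference of 0.37 to 0.40 and an arm ratio of 2.05 to 2.22. With 1 replicate set against the domains, 97.7% to 97.8% were found, 56.0% to 56.1% were single and 72.4% to 73.2% of bases were covered. Requiring 1 replicate in place of both raises these shares by construction. A longer distance can only raise a share, and a shorter one can only lower it. Merging takes away every gap of up to 500 bp, and with it the closest neighbours. For the remaining values that moved, the cause was not tested. No paired analysis was possible because the report holds a single group and made no test. The files give no read counts, so no limit from depth can be stated.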

Other observations

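Outside the major arms the replicate-set list held 2 regions of 5 kb or more, both on the fourth chromosome, among 171 regions. The wider, from 772452 to 792453, was 20.0 kb wide with a score of 0.52 and was 5 regions in each replicate. The other, from 1048769 to 1055941, was 7173 bp wide with a score of 0.82 and was 1 region in each. They are not among the 554 domains.

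Of the domains least covered by the replicates, the one on 2R from 11017995 to 11024767 had 19.6% of its bases in replicate 1 and none in replicate 2. Those on 3R from 3942572 to 3949471 and on 3L from 21327493 to 21333228 had 22.4% and 22.7% in replicate 2 and none in replicate 1. The one on 3L from 22366028 to 22371524 had 24.3% in replicate 1 alone. Among the widest domains that were single in both, 2R from 3938524 to 3954012 and 2R from 7506594 to 7522014 were 15489 and 15421 bp wide, and the replicates had 94.0% and 99.0% of their bases in common.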
